A study of Mus musculus with 6 samples.

Results

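The genes described here are the E2F transcription factors E2f1, E2f2, E2f3, E2f4, E2f7 and E2f8, the pocket protein genes Rb1 and Rbl1, and Mybl2 and Foxm1, whose products drive late cell cycle genes. The 10 genes were chosen by symbol, with earlier results of these data known. All of them were found among the 14788 gene symbols of the table and passed the filter on low counts. They were read in 6 RNA sequencing libraries of type-2 conventional dendritic cells (cDC2s), the antigen-presenting subset that mainly serves CD4 T cells, from C57BL/6 mouse spleen. The groups were 3 wild-type (WT) libraries and 3 libraries of Arhgef1-/- cells, called the knockout here, with no treatment, age or sex given in the labels. Arhgef1 encodes an exchange factor that activates the GTPase RhoA downstream of G12 and G13 proteins. The labels do not say whether the deletion was confined to a cell type, or whether replicates came from separate animals, so p-values measure the spread between these libraries, which may be technical.

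E2F factors bind DNA, mostly with a DP partner, at the promoters of genes for DNA replication. In resting cells the pocket proteins encoded by Rb1, Rbl1 and Rbl2 hold E2Fs in check, and cyclin-dependent kinases release this hold by phosphorylation. E2F1, E2F2 and E2F3 act mainly as activators, E2F4 mainly as a repressor with the pocket proteins, and E2F7 and E2F8 as repressors that bind no pocket protein and are themselves E2F targets. The MuvB core (LIN9, LIN37, LIN52, LIN54 and RBBP4) joins E2F4 and p107 or p130 in the repressive DREAM complex, and later joins B-Myb, encoded by Mybl2, and FoxM1 to switch on mitotic genes. Conventional dendritic cells in the spleen are known to divide locally, so transcripts of this system are found in them.

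Total counts ran from 8408325 to 11714365 per library, and levels are given as CPM, counts scaled to a common library size after TMM normalisation. All WT libraries came from lane 1 and all knockout libraries from lane 2 under another run name, so lane and genotype cannot be told apart. The Arhgef1 transcript, which checks the labels, stood at 287, 317 and 246 CPM in WT replicates 1, 2 and 3 and at 115, 128 and 144 CPM in knockout replicates 1, 2 and 3. It fell by 1.13 on the log2 scale (SE 0.11, edgeR adjusted p = 6.96e-06). All 12 cDC2 markers examined, Itgax, Sirpa, Irf4, Flt3 and Zbtb46 among them, were detected in every library. Of these 12, 5 were lower in the knockout (Sirpa, Cd4, Clec4a4, Cd209a and H2-Ab1) and 0 higher, and their summed level was 13192 to 14509 CPM in WT against 11107 to 12059 CPM in the knockout, without overlap. Cd209a fell by 1.59 on the log2 scale (SE 0.10, edgeR adjusted p = 3.79e-08). Of 16 tested macrophage markers 13 were lower in the knockout, and the summed level of all 17 on the list was 1036 to 1478 CPM in WT and 555 to 691 CPM in the knockout, highest in knockout replicate 1 within its group. The monocyte marker sum ran from 283 to 391 CPM over WT libraries and from 204 to 231 over knockout libraries, without overlap. Of 5 monocyte markers tested 2 were called, both lower: Csf1r (log2 fold change -0.76) and Plac8 (-0.43). Ccr2 (0.61), Fn1 (0.06) and Cx3cr1 (-0.42) did not pass, and Ly6c2, Vcan and F13a1 were not tested. The plasmacytoid dendritic cell marker sum ran from 398 to 433 CPM over WT libraries and from 464 to 569 over knockout libraries, also without overlap. Of 6 such markers tested only Spib was called, higher (means of 62.2 and 109 CPM). Runx2 (173 and 214) and Tcf4 (151 and 173) overlapped between groups and did not pass. Siglech, Bst2 and Ccr9 did not pass either (log2 fold changes of -0.04, 0.16 and 0.25), and Ly6d was not tested. The neutrophil markers S100a8, S100a9 and Mpo summed to at most 15.6 CPM, in knockout replicate 1, with Mpo at 0 in 5 libraries. B cell markers summed to 69.1 to 132 CPM in WT and 92.8 to 115 CPM in the knockout. T cell markers summed to 67.0 to 79.6 CPM in WT and 62.7 to 132 CPM in the knockout, highest in knockout replicate 1. NK cell markers summed to 183 to 205 CPM in WT and 133 to 176 CPM in the knockout, with Klrk1 called higher and Klrd1 lower. Erythroid markers summed to 221 to 247 CPM in WT and 278 to 355 CPM in the knockout, with only Tfrc called, higher. The part of these other cells in the results that follow was not tested. In bulk samples fewer cells of a type and less RNA per cell cannot be told apart.

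In the knockout 6 of the 10 genes rose, E2f1, E2f2, E2f7, E2f8, Mybl2 and Foxm1, by edgeR's test, and the other 4, E2f3, E2f4, Rb1 and Rbl1, did not pass it. DESeq2 called the same 6 and Rbl1, and limma-voom the same 6. The count of genes that fell was 0 with each of these tools, and 0 in edgeR at an unadjusted p under 0.05. Across the 11504 genes tested 9.67% were called, 5.09% higher and 4.58% lower (edgeR quasi-likelihood test, Benjamini-Hochberg adjusted p under 0.05). The median log2 fold change of the 10 genes was 0.80, with a range of -0.08 to 1.54, beside a median of 0.00 over all genes tested. In 8 of the 10 the 3 knockout values all lay above the 3 WT values, which was the case for 13.7% of the genes tested. Because the 10 genes were chosen with earlier results of these data known, these shares describe the set and test nothing.

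Promoters are shown for 4 of the genes: E2f7 and E2f8, which rose about alike, Mybl2, with the largest fold change, and Rbl1, which missed the threshold. E2f1, E2f2 and E2f3 had windows too, which are described below without their letters. Each line gives the 250 bases before the start site in the direction of the gene, from RefSeq on GRCm38.p6: E2f7 at chr10:110745189-110745438 (plus strand), E2f8 at chr7:48881597-48881846 (minus), Mybl2 at chr2:163054385-163054634 (plus) and Rbl1 at chr2:157204535-157204784 (minus). Capitals mark letters that match, on either strand, an E2F core, the cell cycle genes homology region (CHR), to which MuvB binds, or the NF-Y box. The E2F core was searched as TTCCCGC and as TTCGCGC, and further as TTGCCGC and as TTGGCGC, and in an added form of each with G as its last letter. The CHR was searched as TTTGAA and as TTCGAA, and the NF-Y box as CCAAT.
E2f7: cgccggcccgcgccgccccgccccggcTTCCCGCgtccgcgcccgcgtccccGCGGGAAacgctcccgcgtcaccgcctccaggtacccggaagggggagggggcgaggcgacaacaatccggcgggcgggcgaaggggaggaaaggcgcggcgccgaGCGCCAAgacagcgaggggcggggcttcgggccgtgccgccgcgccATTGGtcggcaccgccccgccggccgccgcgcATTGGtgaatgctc
E2f8: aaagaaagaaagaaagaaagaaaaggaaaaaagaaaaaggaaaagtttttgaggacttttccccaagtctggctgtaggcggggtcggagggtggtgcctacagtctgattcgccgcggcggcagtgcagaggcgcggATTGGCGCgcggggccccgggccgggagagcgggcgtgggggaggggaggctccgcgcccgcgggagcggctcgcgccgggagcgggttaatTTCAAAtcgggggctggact
Mybl2: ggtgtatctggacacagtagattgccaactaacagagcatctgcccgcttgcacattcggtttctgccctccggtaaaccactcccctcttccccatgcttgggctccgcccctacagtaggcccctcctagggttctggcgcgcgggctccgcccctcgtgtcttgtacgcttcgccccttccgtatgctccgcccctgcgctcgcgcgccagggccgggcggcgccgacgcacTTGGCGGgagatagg
Rbl1: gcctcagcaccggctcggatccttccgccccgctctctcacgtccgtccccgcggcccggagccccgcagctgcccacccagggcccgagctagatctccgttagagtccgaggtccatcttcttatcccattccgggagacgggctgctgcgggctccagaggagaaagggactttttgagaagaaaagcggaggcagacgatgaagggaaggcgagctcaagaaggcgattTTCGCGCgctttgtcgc

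The E2f7 promoter held 3 E2F cores, at -223, -198 and -92 from the start site (each position is that of the leftmost base), and NF-Y boxes at -46 and -14. In the E2f8 promoter the E2F core at -111 overlapped an NF-Y box read on the other strand, at -112, and a CHR lay at -20. The Rbl1 promoter had an E2F core at -17. The Mybl2 promoter had no match to the core ending in CGC and 1 match to the form ending in CGG, at -15, a form added after the sequences had been seen. Of the 10 genes 7 had an entry in the RefSeq table, with 9 windows of 300 bases (250 before and 50 after the start) between them. E2f4, Foxm1 and Rb1 had none. An E2F core ending in CGC was found in 5 of the 9 windows (55.6%) and in 9.57% of all 32851 windows. With C or G allowed as its last letter, it was found in 6 of 9 (66.7%) and in 17.8% of all. A CHR was found in 3 of 9 (33.3%) and in 19.2% of all. The CHR windows include the second of E2f2, whose RefSeq start site lies 8388 bases inside the gene as GENCODE draws it. For the second E2f3 window the start site lies 1672 bases inside. The RefSeq start site of E2f1 lies 466 bases inside the gene as GENCODE draws it, and its window does not reach the GENCODE start. It held no match to any of these motifs. In the first of the E2f3 windows, E2F cores at -11 and 19 stood beside a CHR at -23 and 3 NF-Y boxes. Matches are descriptions of letters, and nothing here measured binding.

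Of the activators, E2f1 and E2f2 rose and E2f3 did not pass. E2f2 (chromosome 4, 136172394 to 136196057, plus strand, mm10) had the highest level of any E2F here, per length as well as by counts. It was at 127, 119 and 138 CPM in WT replicates 1, 2 and 3, and at 162, 205 and 201 CPM in the knockout. The groups did not overlap, and E2f2 rose 1.48-fold, by 0.56 on the log2 scale (SE 0.11, edgeR adjusted p = 0.00283). Its call was kept in all 15 alternatives run.

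E2f1 (chromosome 2, 154559407 to 154569892, minus strand), the activator best known for driving entry into S phase, was at 14.4, 13.5 and 22.2 CPM in WT and at 22.2, 38.1 and 42.1 CPM in the knockout. Knockout replicate 1 stood only 0.0568 CPM above WT replicate 3, while the other knockout libraries lay well above all WT libraries. The gene rose by 1.04 on the log2 scale (SE 0.25, edgeR adjusted p = 0.0115). That call was lost without WT replicate 1 (adjusted p = 0.0654), WT replicate 2 (0.0684), knockout replicate 2 (0.0600) or knockout replicate 3 (0.0663), with log2 fold changes of 0.94, 0.91, 0.95 and 0.86.

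E2f3 (chromosome 13, 29906575 to 29986063, minus strand) was at 32.8, 41.5 and 39.0 CPM in WT and at 46.2, 47.2 and 49.2 CPM in the knockout. All knockout values lay above all WT values, with knockout replicate 1 standing 4.76 CPM above WT replicate 2. The log2 fold change was 0.33 (SE 0.15, 95% interval 0.02 to 0.65), and with adjusted p = 0.192 by edgeR it did not pass the test over all genes. The symbol covers more than 1 E2f3 isoform with different starts, which gene counts do not separate.

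The repressor E2f4 (chromosome 8, 105297663 to 105305370, plus strand) was at 47.8, 56.4 and 50.1 CPM in WT and at 55.5, 68.8 and 58.0 CPM in the knockout. The groups overlapped, since knockout replicate 1 lay below WT replicate 2. Its log2 fold change of 0.24 (SE 0.14, 95% interval -0.05 to 0.53, edgeR adjusted p = 0.335) did not pass.

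**Figure D1:**
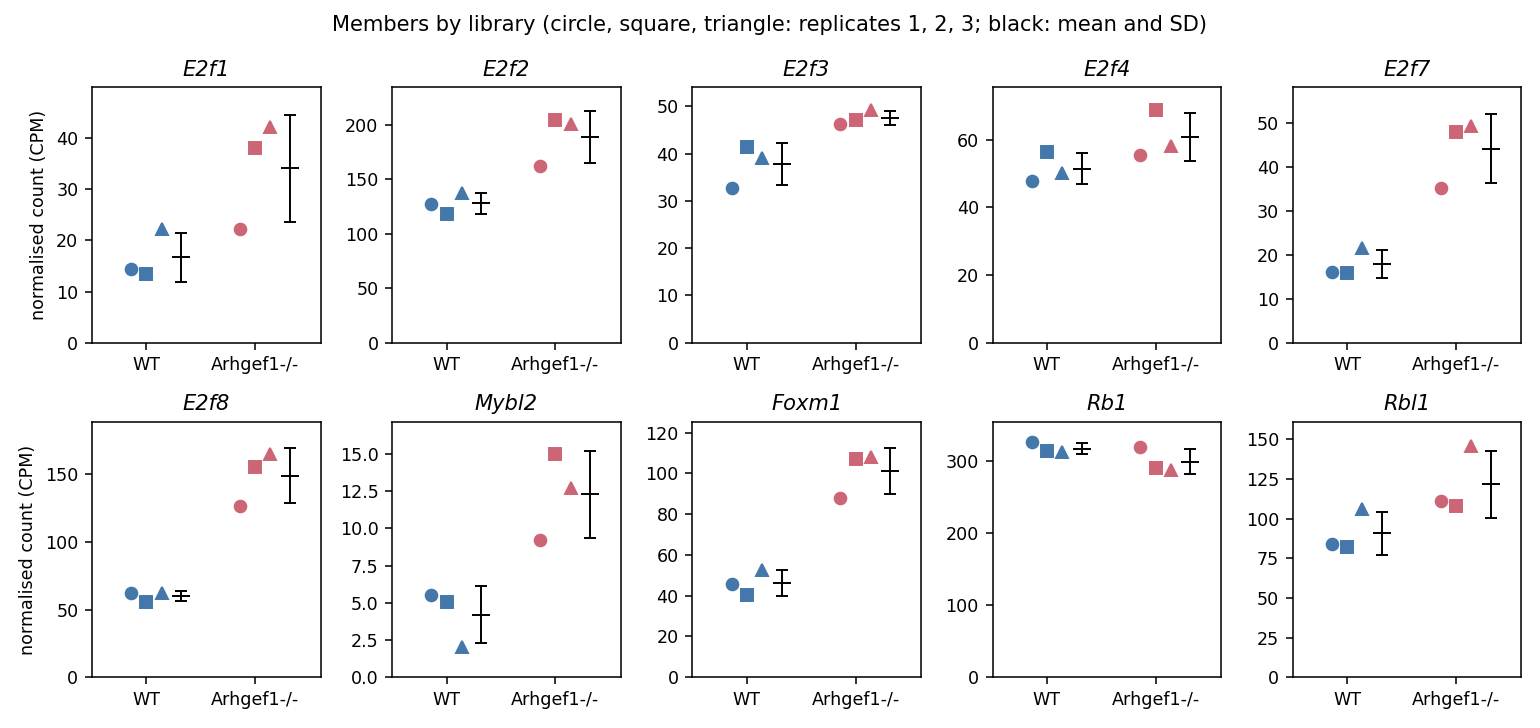
Normalised counts in CPM (vertical axes, each from 0) of the 10 genes in the WT and Arhgef1-/- libraries, with symbols for replicates 1 to 3 and the mean and SD in black. The groups overlap for E2f4 and Rb1 and lie apart for the other 8 genes, by 64.3 CPM for E2f8 and by 0.0568 CPM for E2f1.

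E2f7 and E2f8, the atypical E2Fs that curb E2F targets late in S phase, rose by nearly the same factor. E2f8 (chromosome 7, 48866429 to 48881596, minus strand) was at 62.3, 55.7 and 62.2 CPM in WT and at 127, 155 and 165 CPM in the knockout. Every knockout library was at least 64.3 CPM above every WT library. E2f8 rose 2.48-fold, by 1.31 on the log2 scale (SE 0.12, edgeR adjusted p = 6.96e-06), the smallest adjusted p of the 10 genes. E2f7 (chromosome 10, 110745439 to 110787384, plus strand) was at 16.2, 15.8 and 21.6 CPM in WT and at 35.2, 48.0 and 49.3 CPM in the knockout, and also rose 2.48-fold (1.31 on the log2 scale, SE 0.19, adjusted p = 2.47e-04). The ratio of E2f7 to E2f8 per length was 0.179 ± 0.0273 in WT and 0.178 ± 0.00955 in the knockout (SD, n = 3), a difference smaller than the spread between libraries. Annotated exons of the antisense gene Gm2788 overlap 11.2% of the E2f8 exon bases, and the sources used here do not give the strand setting of the counting. Both calls were kept in all 15 alternatives.

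Atypical E2F transcripts made up more of the E2F pool relative to the activators in every knockout library than in any WT library. The summed level of E2f7 and E2f8 over that of E2f1, E2f2 and E2f3, each as CPM per kilobase of exon, came to 0.361, 0.331 and 0.326 for the WT libraries and to 0.557, 0.540 and 0.564 for those of the knockout. The groups did not overlap and each spanned a narrow range. The activators over E2f4 were at 1.88, 1.57 and 2.08 in WT and at 2.15, 2.23 and 2.69 in the knockout, so that the lowest knockout ratio lay just above the highest WT ratio. These ratios are independent of the scaling of the libraries. They were chosen with the changes of the genes known and carry no test.

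**Figure D2:**
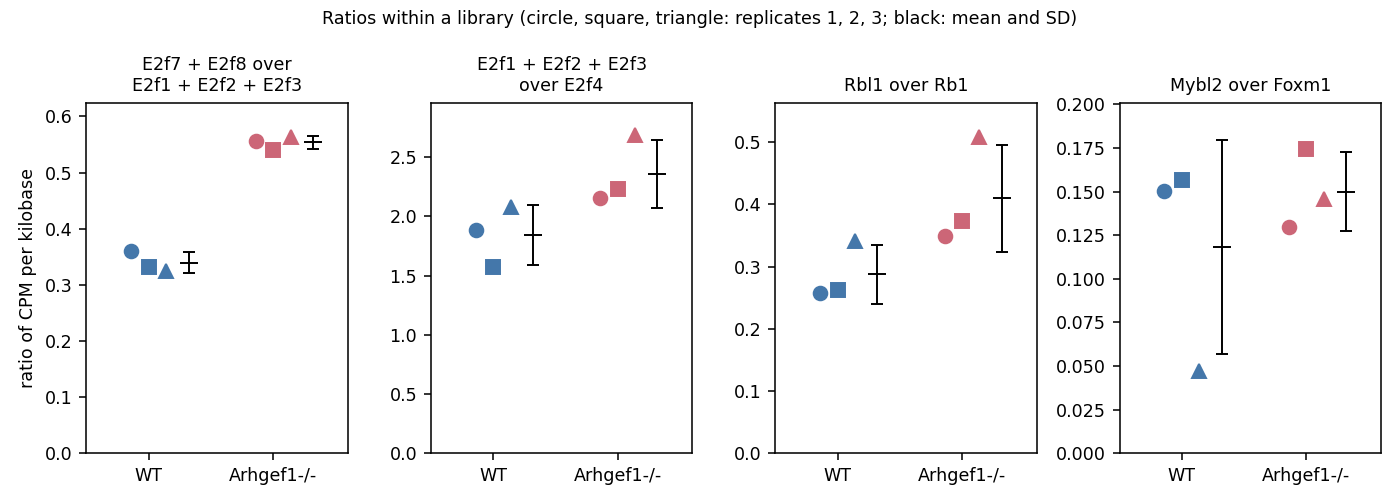
Ratios of levels per kilobase of exon within each library (vertical axes from 0), by genotype, with symbols for replicates 1 to 3 and the mean and SD in black. The ratio of E2f7 plus E2f8 to E2f1 plus E2f2 plus E2f3 stood between 0.326 and 0.361 in WT and between 0.540 and 0.564 in the knockout, while the ratio of Mybl2 to Foxm1 overlapped.

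Mybl2 and Foxm1, the factors that take over from E2F to drive mitotic genes, both rose. Foxm1 (chromosome 6, 128362967 to 128376146, plus strand), a forkhead factor, was at 45.9, 40.2 and 52.6 CPM in WT and at 87.9, 107 and 108 CPM in the knockout. All knockout libraries lay far above WT, and the gene rose 2.19-fold (1.13 on the log2 scale, SE 0.14, edgeR adjusted p = 4.94e-05). The call was kept in all 15 alternatives.

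Mybl2 (chromosome 2, 163054687 to 163084688, plus strand), which encodes B-Myb, had the fewest reads of the 10 genes, with counts of 58, 44 and 17 in WT and of 79, 145 and 149 in the knockout. In CPM these were 5.56, 5.07 and 2.01 against 9.20, 15.0 and 12.7. WT replicate 3 was low, and knockout replicate 1 was the lowest of its group but still above all WT libraries. Mybl2 had the largest fold change of the 10 genes, 1.54 on the log2 scale, with the largest error (SE 0.37, edgeR adjusted p = 0.0138). Without WT replicate 3 the value was 1.21 and the call was lost (adjusted p = 0.0501), as it was without knockout replicate 2 (1.37, adjusted p = 0.0734).

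Of the pocket protein genes, Rb1 did not pass the test and Rbl1 lay close to the threshold. Rb1 (chromosome 14, 73183673 to 73325822, minus strand), the retinoblastoma tumour suppressor gene, was at 326, 313 and 312 CPM in WT and at 319, 291 and 287 CPM in the knockout. The groups overlapped, and the log2 fold change of -0.08 (SE 0.08, 95% interval -0.26 to 0.09, edgeR adjusted p = 0.616) was the only negative value among the 10 genes. Exons of Lpar6 and Rcbtb2, on the opposite strand, overlap 6.78% and 8.11% of the Rb1 exon bases.

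Rbl1 (chromosome 2, 157145893 to 157204534, minus strand), which encodes p107 and is known as an E2F target itself, was at 83.8, 82.1 and 106 CPM in WT and at 111, 108 and 146 CPM in the knockout. The knockout values all lay above WT, with knockout replicate 2 only 1.81 CPM above WT replicate 3. Its log2 fold change was 0.42 (SE 0.14, 95% interval 0.14 to 0.71) and edgeR's adjusted p was 0.0559. It passed in 7 of the 15 alternatives, including DESeq2 (adjusted p = 0.0340) and total counts without TMM scaling (0.0400), and the adjusted p ranged from 0.0305 to 0.263 over them. Rbl1 over Rb1, per length, was 0.258, 0.263 and 0.342 in WT and 0.349, 0.373 and 0.509 in the knockout.

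Levels can be set side by side only per length, here as CPM per kilobase of all annotated exons merged, which understates genes with long, little-used exons. In WT the order was Rb1 (52.7), E2f2 (26.2), E2f4 (21.0), Rbl1 (15.1), E2f8 (11.03), Foxm1 (8.03), E2f3 (6.95), E2f1 (5.29), E2f7 (1.98) and Mybl2 (0.909). The ranges of Foxm1 and E2f3, and of E2f3 and E2f1, overlapped. The other neighbours did not overlap. In the knockout E2f8 (27.4) came after Rb1 (49.7) and E2f2 (38.7) and before E2f4 (24.8), Rbl1 (20.3) and Foxm1 (17.5). E2f8 and E2f4, E2f4 and Rbl1, Rbl1 and Foxm1, and E2f1 (10.8) and E2f3 (8.75) overlapped there. E2f7 (4.90) and Mybl2 (2.66) stayed the lowest of the 10.

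Among the knockout libraries, replicate 1 had the lowest value for all 6 genes that rose. The mean log2 CPM of the 10 genes, relative to its WT mean, was 0.57 in knockout replicate 1, 0.87 in replicate 2 and 0.89 in replicate 3. In the WT libraries it was -0.01, -0.03 and 0.04. The macrophage markers were highest in the same knockout library, at 691 CPM against 555 and 558 CPM. The 8 cDC1 markers summed to 235 CPM there against 122 CPM in each of the other knockout libraries, and to 178 to 244 CPM in WT. The part of either marker list in the order of the 10 genes was not tested. Without that library 7 of the 10 genes were called higher, the 6 above and Rbl1.

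Of the other subunits of the same complexes, 11 in number and all tested, 2 rose and 0 fell in edgeR, beside 5.09% and 4.58% of all genes tested. At an unadjusted p under 0.05, 1 of these subunits, Lin52, was lower. Their median log2 fold change was 0.37, and 0.21 without knockout replicate 1. Tfdp1, which encodes the main DP partner of the E2Fs, rose from 20.02 ± 0.753 to 37.2 ± 9.74 CPM (SD, n = 3; 0.90 on the log2 scale, SE 0.20, edgeR adjusted p = 0.00824), and lost its call without knockout replicate 2 (0.80, adjusted p = 0.0525). Mybl1, the A-Myb gene, rose from 13.2 ± 0.288 to 22.2 ± 4.91 CPM (0.74, SE 0.23, adjusted p = 0.0458). Its call was lost with upper-quartile scaling (0.72), with limma-voom (0.69), and without any one of 5 libraries: WT replicates 1, 2 or 3 (0.75, 0.73 and 0.76) and knockout replicates 1 or 2 (0.58 and 0.74). The second DP gene, Tfdp2, was at 22.2 and 29.5 CPM and did not pass (0.41, SE 0.21, adjusted p = 0.254).

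Among the MuvB core genes 0 of 5 passed in edgeR, beside 9.67% of all genes tested, so 5 genes are too few to set them apart. In 2 of them, Lin52 and Rbbp4, the unadjusted p was under 0.05, a level for which the share of all genes was not counted. Lin9 had a log2 fold change of 0.17 (SE 0.19), Lin37 of 0.00 (SE 0.22) and Lin54, which contacts the CHR, of 0.15 (SE 0.13). Lin52 had the only large negative value, -0.90 (SE 0.36, adjusted p = 0.132), with WT at 9.32 ± 2.79 CPM, the knockout at 4.99 ± 1.35 CPM (SD, n = 3) and all knockout values below WT. The histone chaperone gene Rbbp4, which serves several other chromatin complexes, went from 72.0 to 93.3 CPM and lay just past the threshold (0.37, SE 0.12, adjusted p = 0.0556); it passed with DESeq2 (adjusted p = 0.0276). Rbl2, the gene of p130, was at 161 and 152 CPM (-0.09, SE 0.12, adjusted p = 0.739). E2f5 and E2f6, further repressor E2Fs, had values of 0.41 (SE 0.33) and 0.40 (SE 0.20) and did not pass.

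**Figure D3:**
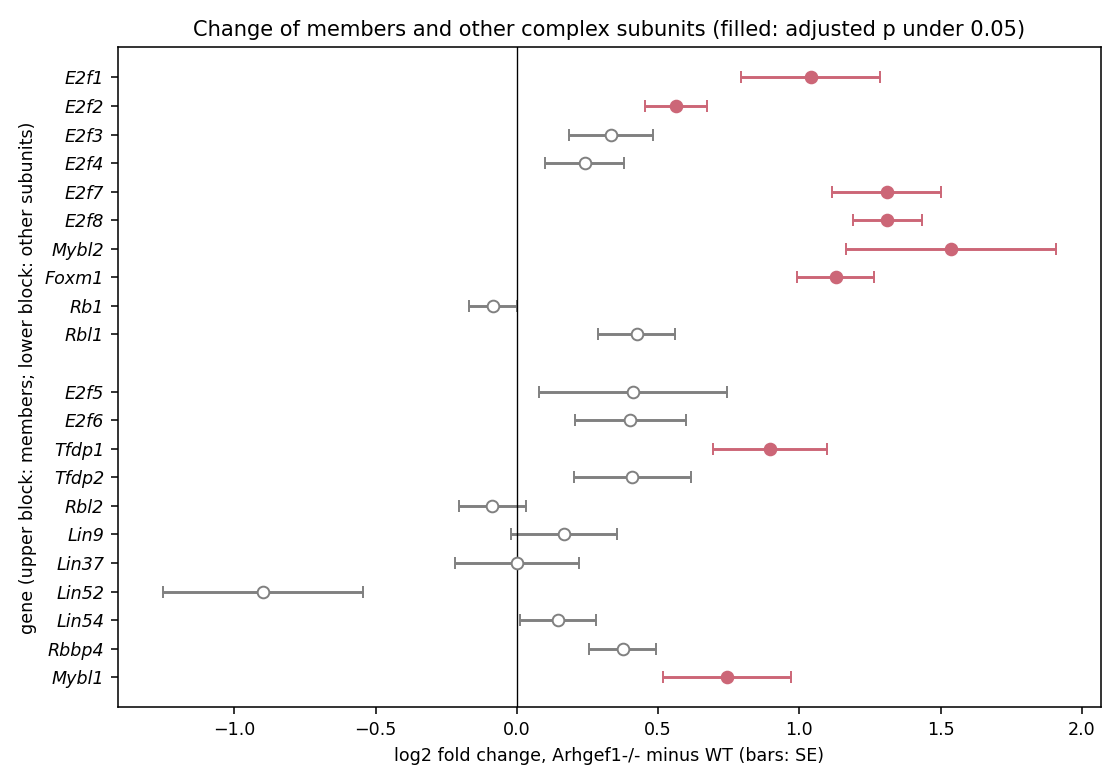
Log2 fold change of the knockout against WT (horizontal axis, with SE) for the 10 genes (upper block) and the 11 other subunits (lower block), filled where the adjusted p was under 0.05. In the upper block 6 of 10 are filled and in the lower block 2 of 11, Tfdp1 and Mybl1.

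Upstream of the pocket proteins, 10 of 18 tested kinase, cyclin and inhibitor genes rose and 1 fell (median log2 fold change 0.58). Of all genes tested, 5.09% rose and 4.58% fell. Cdk6, which phosphorylates pocket proteins with D-type cyclins, rose from 24.7 to 56.7 CPM (1.20, SE 0.16, edgeR adjusted p = 8.91e-05). Ccna2, the cyclin A gene, rose from 67.4 to 148 CPM (1.13, SE 0.13), Cdk2 from 28.3 to 52.2 CPM (0.89, SE 0.19), Cdk1 from 11.3 to 23.2 CPM (1.04, SE 0.26) and Skp2, which targets the inhibitor p27 for degradation, from 38.5 to 61.6 CPM (0.68, SE 0.14). Cyclin D2 went the other way: Ccnd2 fell from 187 to 99.5 CPM (-0.91, SE 0.15, adjusted p = 5.48e-04). The cyclin D1 gene Ccnd1, at a higher level, rose from 1823 to 2146 CPM (0.23, SE 0.07, edgeR adjusted p = 0.0386). Cdk4 rose by 0.49 (SE 0.15, edgeR adjusted p = 0.0449) and the inhibitor gene Cdkn2d by 0.82 (SE 0.25, edgeR adjusted p = 0.0439). Fbxo5 (0.80, SE 0.22, edgeR adjusted p = 0.0276) and Dyrk1a (0.32, SE 0.09, edgeR adjusted p = 0.0300) were called higher as well. Ccnd3 (0.34, SE 0.20), the p27 gene Cdkn1b (-0.14, SE 0.11) and Cdkn2b (0.03, SE 0.43) did not pass. Neither did the inhibitor genes Cdkn1a (0.45, SE 0.21) and Cdkn2c (0.44, SE 0.20). The count of 10 was 4 without WT replicate 2 or knockout replicate 2, 5 without WT replicate 3, and 6 without WT replicate 1 or knockout replicate 3. For Cdk1 the value no longer passed when WT replicate 2 (0.92) or either of knockout replicates 2 and 3 (0.91 in each case) was left out, and Cdk2 did not pass without knockout replicate 3 (0.68).

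Downstream, most known targets were higher, in lists that were likewise chosen with earlier results of these data known. Of 28 genes of the G1/S transition known as E2F targets 20 rose and 0 fell, beside 5.09% and 4.58% of all genes tested. Their median log2 fold change was 0.83 and the lowest 0.20. Rrm2 and Rrm1, the subunit genes of ribonucleotide reductase, rose from 76.9 to 167 CPM (1.12, SE 0.13) and from 84.6 to 167 CPM (0.98, SE 0.12). The replicative helicase gene Mcm2 rose from 37.9 to 85.0 CPM (1.16, SE 0.14), Mcm6 by 0.79 (SE 0.11), Mcm3 by 0.83 (SE 0.12) and Mcm4 by 0.73 (SE 0.11). Ccne1, the cyclin E1 gene (0.74, SE 0.35, edgeR adjusted p = 0.224), Rpa2 (0.29, SE 0.17) and the thymidine kinase gene Tk1 (0.20, SE 0.16) did not pass. The promoter windows of this list held an E2F core in 17 of 24 cases (70.8%) and a CHR in 3 (12.5%).

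Of 29 tested G2/M genes known as targets of MuvB, B-Myb and FoxM1, 25 rose and 0 fell, beside 5.09% and 4.58% of all genes tested. Their median log2 fold change was 1.01 and the lowest 0.28. Ccnb2, a mitotic cyclin gene, rose from 34.1 to 89.98 CPM (1.40, SE 0.17, edgeR adjusted p = 4.59e-05), and the proliferation marker Mki67, the topoisomerase gene Top2a and the motor genes Cenpe and Kif11 rose by 0.997, 1.05, 1.12 and 1.10 on the log2 scale. Cdc20, an activator of the anaphase-promoting complex (0.28, SE 0.38), the phosphatase gene Cdc25b (0.83, SE 0.33) and the centromeric histone gene Cenpa (0.47, SE 0.17) did not pass. The windows of this list held a CHR in 20 of 27 cases (74.1%), an NF-Y box in 26 (96.3%) and an E2F core in 4 (14.8%). The NF-Y box occurred in 37.4% of all windows. Ccna2 and Cdk1 belong to this list as well as to the upstream list, and Ccne1 and Ccne2 to both the upstream and the G1/S list.

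**Figure D4:**
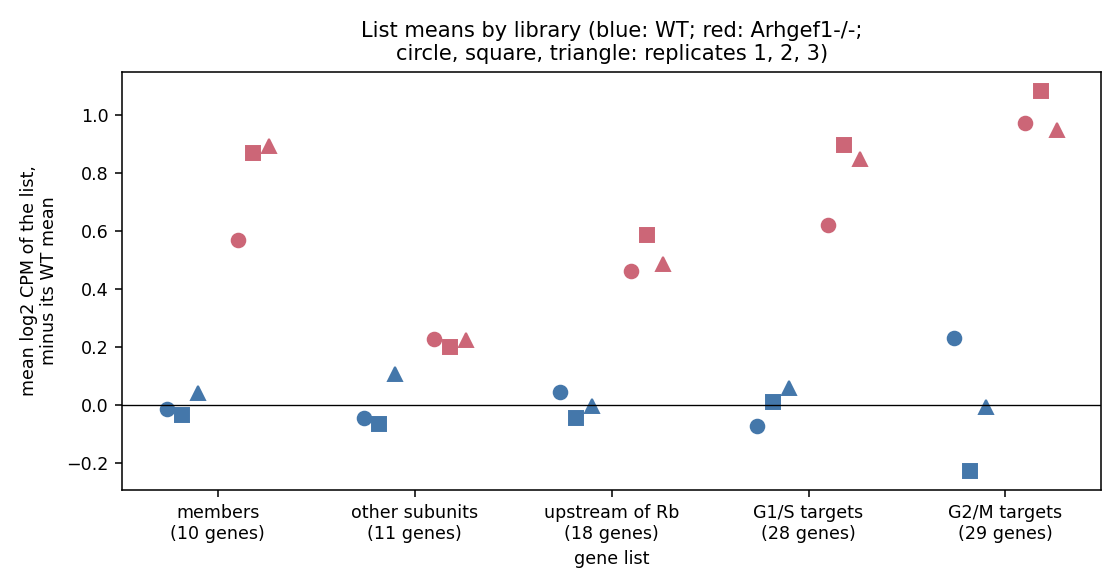
Mean log2 CPM of each gene list in each library minus the mean of the WT libraries (vertical axis), for the 10 members, the other subunits, the genes upstream of Rb and the G1/S and G2/M targets. Knockout libraries stood above WT in all 5 lists, by 0.57 to 0.89 for the members and by 0.20 to 0.23 for the other subunits.

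Levels of the 10 genes were also set against Mki67 in the same library, which itself rose by 0.997 on the log2 scale. E2f8 gave 6.86, 7.40 and 7.70 reads per 100 Mki67 reads in WT and 8.42, 8.73 and 10.1 in the knockout, so that the groups did not overlap and the knockout was higher. Foxm1 gave 5.05, 5.34 and 6.52 in WT and 5.85, 6.01 and 6.58 in the knockout, and the groups overlapped. E2f1, E2f7 and Mybl2 overlapped too. E2f2 gave 14.04, 15.8 and 17.1 in WT and 10.8, 11.5 and 12.2 in the knockout, and E2f3, E2f4, Rb1 and Rbl1 were likewise lower per Mki67 read in every knockout library than in any WT library. A gene that rose clearly less than Mki67, or not at all, falls per Mki67 read by arithmetic. The ratios thus restate the fold changes beside that of Mki67, and they carry no test.

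The genes whose profile over the 6 libraries was most like each member were sought among 8147 others, by the root mean square difference of centred log2 CPM. For E2f8 the nearest was Ect2 (0.0735), then Erdr1 (0.0856) and Ckap2l (0.102). For Foxm1 they were Erdr1 (0.0816), Ankle1 (0.0888) and Aurkb (0.0901), and for E2f7 Aurkb (0.101), Erdr1 (0.121) and Pbk (0.145). E2f1 was nearest to Fen1 (0.159), Cdk1 (0.165) and Aurkb (0.167), and Mybl2 to Gas2l3 (0.286), Cdc6 (0.298) and Kif2c (0.312), at larger distances. E2f2 was nearest to Fkbp1a (0.0449), Rbl1 to Haus5 (0.0512), E2f3 to Atp2a2 (0.0232), E2f4 to Fkbp5 (0.0392) and Rb1 to Smg6 (0.0321). Genotype differences make up much of a profile over 6 libraries, so likeness here is a description.

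**Figure D5:**
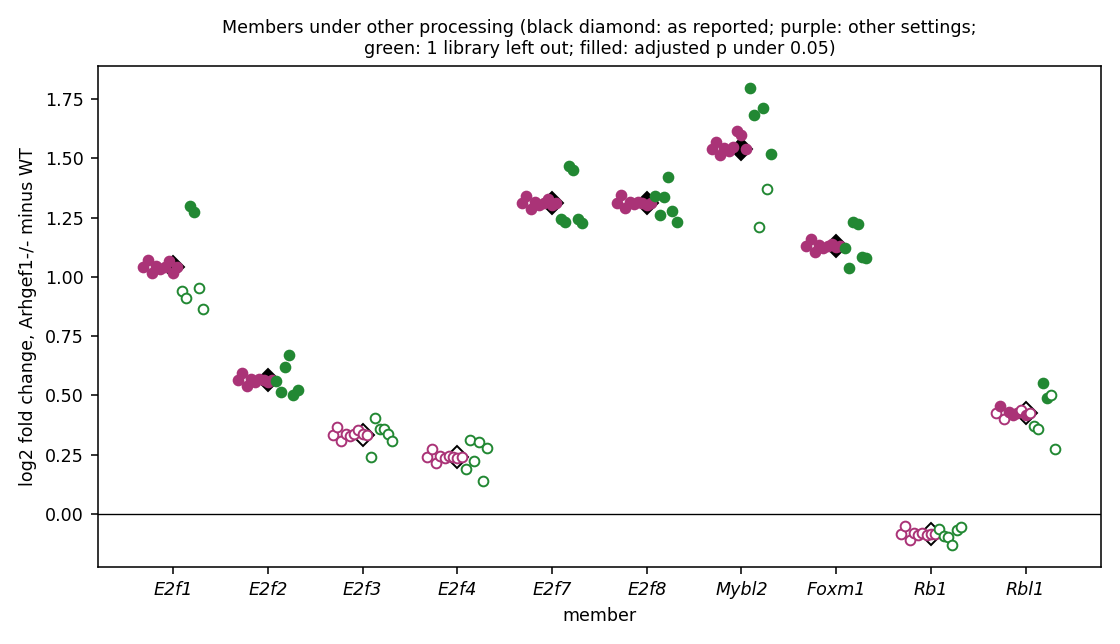
Log2 fold change of each of the 10 genes (vertical axis) as reported (black diamond), under 9 other settings (purple) and with each library left out (green), filled where the adjusted p was under 0.05. E2f2, E2f7, E2f8 and Foxm1 stay filled throughout, E2f1 and Mybl2 are open in some fits with a library left out, and Rbl1 is filled in 7.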

How the data were processed

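The authors deposited raw read counts per gene symbol, 1 column per library. Tools named in the submitters' processing notes are STAR, HTSeq and DESeq2, with the build mm10; the sources used here give no versions, annotation or strand setting. Counts were tested with edgeR 4.0.16 (R 4.3.3): filterByExpr kept 11504 of 14788 genes, TMM normalisation factors ran from 0.977 to 1.02, and a quasi-likelihood fit with genotype as its term used all 6 libraries, with Benjamini-Hochberg adjustment over all genes tested. SEs came from the fold change and F statistic. CPM use TMM-scaled sizes; log2 CPM profiles have a prior count of 2. Exon lengths and positions came from GENCODE vM21 (mm10), promoters from RefSeq (GRCm38.p6). The procedure was tested on simulated data.

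The members and lists were chosen with earlier results of these data known. Named were the members, Arhgef1, the other subunits, the 6 smallest and 3 largest p-values of each other cycle list, and the 3 nearest profiles per member, taken among genes whose average log2 CPM was 3 or more. Ccnd1, Cdk4, Cdkn1a, Cdkn2c, Cdkn2d, Fbxo5 and Dyrk1a were named in addition, without single-gene values from the alternatives. Libraries of a group differed by more than sampling noise. Alternatives, 15 in all, were 3 other scalings, 2 other low-count filters, DESeq2 1.42.0, limma-voom 3.58.1, the replicate number as a block, the 50 most abundant genes left out, and leaving out each library in turn.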

Additional observations from a re-analysis of the deposited data

How the results depend on the processing

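The 10 cycle regulators kept their direction in all 15 alternatives, and 7 of them also kept their side of the threshold; E2f1 and Mybl2 lost their call without single libraries and Rbl1 gained one in 7 alternatives. The number of them called higher was 6 or 7 in the other settings and 4 to 7 with a library left out, lowest without knockout replicate 2. With a library left out, genes called higher over the whole table ranged from 310 to 583 and lower from 264 to 489, other subunits called higher from 0 to 2, and upstream genes called higher from 4 to 8. Other subunits called higher came to 1 with upper-quartile factors, limma-voom or the replicate block. Replicate numbers do not pair these libraries: deviations of same-numbered libraries correlated at 0.0382, -0.0326 and -0.0330, and not every library correlated best with its own number. With the replicate block 496 genes were higher and 449 lower, 7 of the 10 regulators were called higher, 6 upstream genes were called higher, and Mybl1 was at 0.73 with its call lost. Values that changed sign were those of genes that passed in no fit. Lin37 was at -0.022 with upper-quartile factors, -0.0060 with the stricter filter, -0.011 with the replicate block, and from -0.17 to 0.25 with a library left out. Cdkn2b was at -0.039 with limma-voom and from -0.25 to 0.16 with a library left out. With a library left out Cdc20 ranged from -0.061 to 1.12, Tk1 from -0.010 to 0.30 and Rbl2 from -0.20 to 0.040. The cause was not tested. Depth limits Mybl2 most, with 17 reads in its lowest library.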
